A study of Mus musculus with 20 samples.

Results

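The genes described here are 10 members of the mouse Bcl2 family, the group of proteins that sets whether the outer mitochondrial membrane stays sealed or is opened during apoptosis. They were chosen by name, from Ensembl IDs matched to mouse symbols, among 49585 gene IDs in a table of read counts. The members comprise the inhibitors Bcl2, Bcl2l1 (Bcl-xL), Bcl2l2 (Bcl-w) and Mcl1, the pore-forming effector Bak1, and the BH3-only proteins Bid, Bad, Bik, Bcl2l11 (Bim) and Bmf. All 10 passed the filter on low counts, so none is missing from the tests.

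RNA sequencing covered 18 primary mouse osteosarcomas and 1 cell line. The tumours came from p53R245W/+ mice (n = 3), p53R270H/+ mice (n = 5), p53R172H/+ mice (n = 6) and p53+/- mice (n = 4), all of a C57BL/6J and 129S/SvJae mixed strain. Every tumour group therefore carried 1 altered p53 allele in the germline, either a missense allele or the minus allele, and no tumour from a p53 wild-type mouse and no normal bone entered the comparisons. Cell line 14, grown from a primary osteosarcoma and labelled p53R245/O with loss of heterozygosity, gave 1 library treated with p53 siRNA and 1 control library. The ages of the mice and whether the tumours kept their wild-type p53 allele are not given in the sources used here, and each tumour library is taken as 1 tumour.

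The inhibitors bind effector and BH3-only proteins and keep them inactive. BH3-only proteins occupy the groove of the inhibitors or, in the case of Bim and cleaved Bid, also activate Bak1 and its relative Bax directly, after which the effectors oligomerise, cytochrome c leaves the mitochondria and caspases are activated. Wild-type p53 transcribes several genes of this system, of which Bbc3 (Puma), Pmaip1 (Noxa) and Bax are the best known. Transcript levels, as measured here, leave out the cleavage, phosphorylation and binding that set the activity of these proteins.

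The promoters of Bak1 and Bid are printed because these were the members whose level differed among the genotypes. Each sequence covers the 250 bases before a transcription start in RefSeq's annotation of GRCm38.p6, on the gene's own strand. Capitals mark the GC box GGGCGG, searched on both strands. The Bak1 window lies at chr17:27028628-27028877 and the Bid window at chr6:120916825-120917074, both on the minus strand. In GENCODE M21, used here for gene spans, Bak1 reaches to 27029009. Its window thus lies inside that span, and bases before the GENCODE end were not searched. The Bid span ends at 120916853, inside the Bid window.
Bak1: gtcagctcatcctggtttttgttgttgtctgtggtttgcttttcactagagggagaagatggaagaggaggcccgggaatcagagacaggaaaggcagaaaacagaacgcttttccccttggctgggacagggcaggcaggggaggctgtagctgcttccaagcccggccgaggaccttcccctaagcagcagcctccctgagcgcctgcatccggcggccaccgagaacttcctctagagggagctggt
Bid: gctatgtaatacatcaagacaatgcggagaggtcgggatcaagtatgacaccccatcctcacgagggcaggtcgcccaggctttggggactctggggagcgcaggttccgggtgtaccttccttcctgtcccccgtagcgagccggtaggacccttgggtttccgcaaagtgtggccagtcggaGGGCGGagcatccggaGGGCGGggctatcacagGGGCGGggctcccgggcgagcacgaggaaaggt
The Bid window held 3 GC boxes in its last part, next to the start site, and the Bak1 window held 0. The GC box was present in 32.7% of the 32851 promoter windows of the RefSeq table. The GC content was 58.4% for Bak1 and 63.6% for Bid, against a median of 52.4% over all windows. The p53 half-site was found in 0 of these 2 sequences and in 7.13% of all windows. Among the 15 windows of the 9 members in the table, only 1 window of Bmf held a p53 half-site. These matches describe letters in a window and do not say which factor binds there.

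The tumour libraries held 20.1 to 29.2 M (megacounts), and cell line 14 had 73.4 M with p53 siRNA and 64.1 M in the control. A floor of 3 counts came to between 0.103 and 0.149 counts per megacount of the library (CPM) in the tumours. Trp53, the targeted gene, averaged 64.5 ± 8.54 CPM in R245W tumours, 36.8 ± 11.9 CPM in R270H tumours, 50.6 ± 13.5 CPM in R172H tumours and 20.2 ± 5.75 CPM in p53+/- tumours (SD, n = 3, 5, 6 and 4). In cell line 14 it was 30.6 CPM with p53 siRNA and 94.9 CPM in the control. Titles of the tumour libraries are of 2 kinds, with a serial number or without one. All R245W and R172H titles had a serial number, no R270H title had one, and p53+/- tumours had 2 of each kind. What the number stands for is not given, so for R270H tumours against R245W or R172H tumours the kind of title and the genotype cannot be told apart other than through the 4 p53+/- libraries. The osteoblast markers Runx2, Sp7, Bglap, Ibsp, Alpl and Col1a1 summed to 18607 to 52887 CPM in R245W tumours, 21580 to 53980 CPM in R270H tumours, 12745 to 70262 CPM in R172H tumours and 24059 to 78782 CPM in p53+/- tumours. Macrophage markers were present in every tumour, with summed levels between 666 and 2054 CPM, and came to 13.1 CPM with p53 siRNA and 13.3 CPM in the control of the cell line. In such bulk samples, fewer cells of a type and less RNA per cell cannot be told apart. The p-values measure the spread between these libraries.

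**Figure D1:**
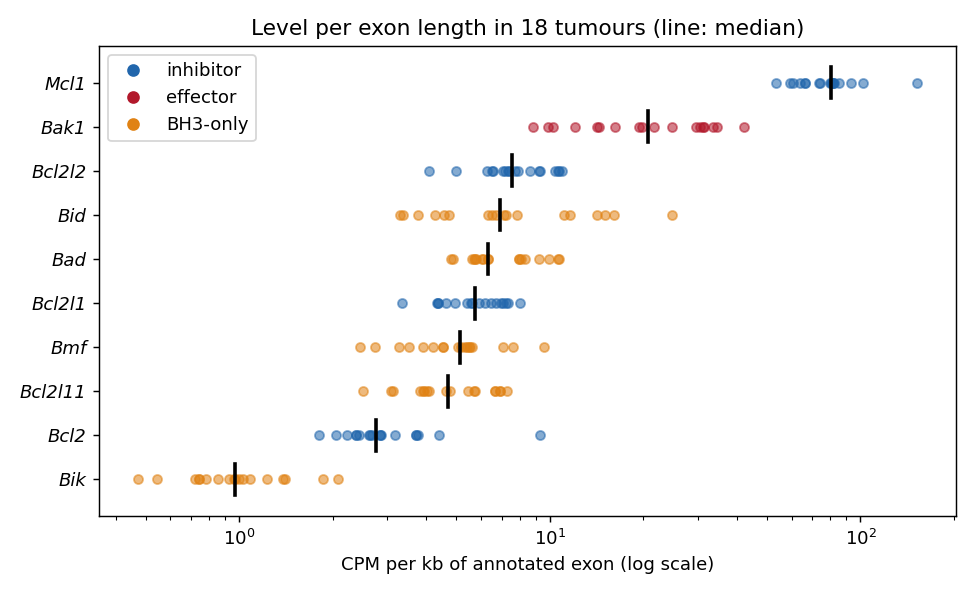
Level of each Bcl2 family member in the 18 tumours, in CPM per kb of exon on a log axis, with 1 point per library, colours for inhibitors, effector and BH3-only proteins, and a black line at the median. Mcl1 (median 80.2) lies above every value of the other members, and Bik (median 0.966) at the low end.

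Mcl1, the short-lived inhibitor that binds Bak1 and Bim, was the most abundant family transcript in the osteosarcomas when levels were taken per exon length. Its median over the 18 tumours was 80.2 CPM per kb, followed by Bak1 at 20.7 CPM per kb. Bcl2l2, Bid, Bad, Bcl2l1, Bmf and Bcl2l11 formed a close group with medians of 7.54, 6.90, 6.31, 5.76, 5.12 and 4.70 CPM per kb, and neighbours in this order overlapped in their ranges. Bcl2 itself stood at 2.76 CPM per kb and Bik, a BH3-only protein of the endoplasmic reticulum, was lowest at 0.966 CPM per kb. Bik was counted with only 18 to 70 reads per tumour library, so its values are the least precise.

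As a share of the summed per-kb level of the 10 members, Mcl1 made up 44.3% to 49.7% in R245W tumours, 51.8% to 72.8% in R270H tumours, 46.2% to 61.4% in R172H tumours and 46.0% to 60.6% in p53+/- tumours. The shares of Mcl1 in R245W and R270H tumours did not overlap. Bak1 held 16.2% to 23.5% of the sum in R245W tumours, 4.92% to 12.1% in R270H tumours, 14.3% to 21.8% in R172H tumours and 12.1% to 25.9% in p53+/- tumours. The highest R270H share and the lowest p53+/- share of Bak1 lay next to each other, and the R270H shares lay below those of R245W and R172H tumours. The 4 inhibitors together held 53.9% to 63.4% in R245W tumours, 64.2% to 81.8% in R270H tumours, 57.3% to 68.7% in R172H tumours and 58.7% to 74.0% in p53+/- tumours. These shares were not tested, since a share of one member moves with the level of the others.

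The members differed in how much they varied between tumours. Bid had the widest spread, with a highest level 7.51-fold above the lowest and a coefficient of variation of 64.6%. Bcl2 followed with 51.8%, with 1 R172H tumour far above the rest, and Bak1 with 44.8%. The steadiest members were Bcl2l1, at 22.2%, and Bcl2l2, at 24.9%. The median over the members was 32.5%, against 34.4% over 16016 genes with a mean of at least 1 CPM.

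**Figure D2:**
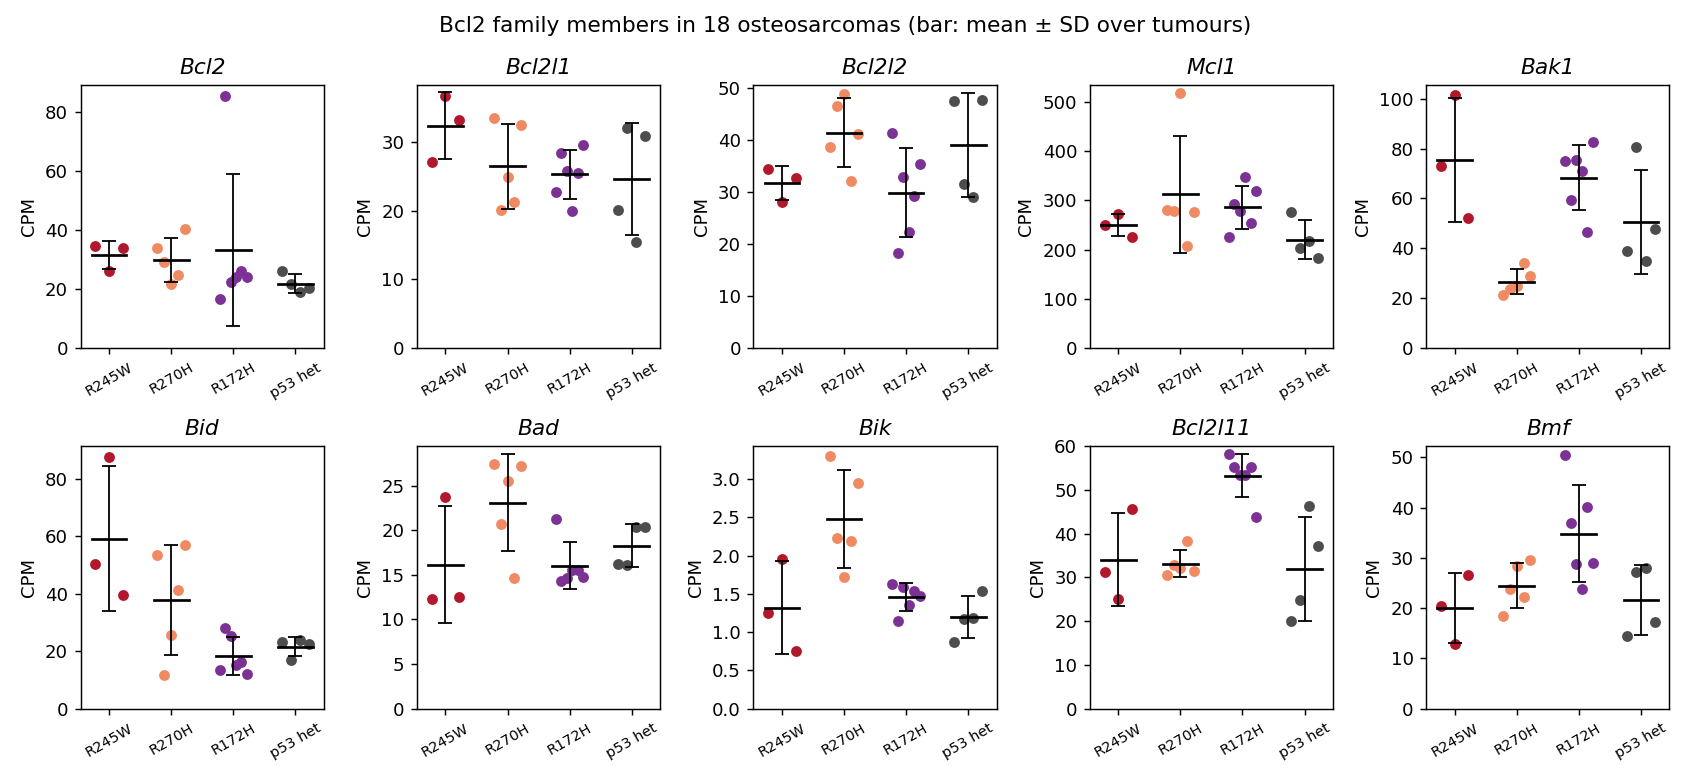
CPM of each member in every tumour, with 1 panel per gene, points for single tumours and bars for the mean ± SD of R245W, R270H, R172H and p53+/- (p53 het) tumours from left to right. Bak1 is low in all 5 R270H tumours, Bid is high in all 3 R245W tumours and Bcl2l11 is high in R172H tumours.

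In the test for any difference among the 4 genotypes, Bak1 and Bid were the members whose level differed. Bak1 had an adjusted p of 0.0315 and Bid an adjusted p of 0.0440 in edgeR's quasi-likelihood test with Benjamini-Hochberg adjustment over all 20616 genes. The same test called 2.86% of all genes, and 4 of 10 members had an unadjusted p below 0.05, against 22.1% of all genes. The adjusted p values of the other members in this edgeR test were 0.0922 for Bcl2l11, 0.116 for Bik, 0.275 for Bmf, 0.292 for Bad, 0.328 for Bcl2l2, 0.610 for Mcl1, 0.660 for Bcl2l1 and 0.761 for Bcl2. In fits that left out 1 library, this test called 185 to 937 genes in all, against 590 with every library. The calls of Bak1 and Bid were lost in some of these fits. Bak1 missed the threshold without any 1 of 7 libraries (edgeR adjusted p up to 0.0791, without R270H replicate 1), and Bid without any 1 of 15 of the 18 (up to 0.0958, without R245W replicate 2). With the kind of title as a covariate the edgeR adjusted p was 0.635 for Bak1 and 0.219 for Bid, and limma voom gave 0.193 for Bid. In this test the covariate fit called 19 of all 20616 genes and limma voom 330.

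Bak1 encodes a mitochondrial outer membrane protein that forms the pores through which cytochrome c leaves. The gene lies at 17:27019810-27029009 in GRCm38. Bak1 stood at 73.2, 102 and 51.9 CPM in the 3 R245W tumours and at 21.2, 23.7, 24.7, 34.1 and 28.9 CPM in the 5 R270H tumours. In R172H tumours the lowest, median and highest levels were 46.5, 73.02 and 82.8 CPM, and the p53+/- tumours had 39.0, 80.6, 34.8 and 47.8 CPM. All R270H tumours lay below all tumours of each of the other genotypes, though the highest R270H and the lowest p53+/- values were close. The means were 75.5 ± 24.9 CPM in R245W tumours, 26.5 ± 5.06 CPM in R270H tumours, 68.4 ± 13.2 CPM in R172H tumours and 50.5 ± 20.8 CPM in p53+/- tumours.

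Relative to R172H tumours, Bak1 fell in R270H tumours with a log2 fold of -1.34 ± 0.27 (SE) and an adjusted p of 0.0132 in edgeR's quasi-likelihood test. Bak1 was the only one of 10 members called in this comparison, where 5.28% of all genes were called. It was called in all 18 fits that left out 1 library. In R245W tumours Bak1 was higher than in R270H tumours by 1.53 ± 0.31 on the log2 scale (edgeR adjusted p 0.0274), again as the only member called, beside 1.24% of all genes. That call was lost without R245W replicate 1 or 2 or R270H replicate 1, 2 or 3, with edgeR adjusted p values between 0.0567 and 0.0824. Against p53+/- tumours the log2 fold of R270H tumours was -1.05 ± 0.29 and did not pass in edgeR (adjusted p 0.195).

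A covariate for the kind of title rests on the p53+/- tumours, which alone hold both kinds. Bak1 stood there at 39.0 and 80.6 CPM with a serial number and at 34.8 and 47.8 CPM without one. With that covariate the log2 folds of Bak1 were -0.62 for R270H against R172H tumours (edgeR adjusted p 0.717) and 0.81 for R245W against R270H tumours (edgeR adjusted p 0.615). Over all 20616 genes that fit called 1 and 8, against 1088 and 255 without the covariate. Within titles without a serial number, the log2 fold of Bak1 in R270H tumours against the 2 p53+/- tumours was -0.65 (edgeR adjusted p 0.465). The summed levels of all 11 marker lists of other and resident cell types overlapped between R270H and R172H tumours, and 10 of 11 overlapped between R245W and R270H tumours. The exception was the fibroblast list of Dcn, Lum, Postn and Pdgfra, with 388 to 768 CPM in R245W tumours and 841 to 3731 CPM in R270H tumours. Overlapping ranges can hide unlike medians. In R270H against R172H tumours the medians were 1137 and 4178 CPM for fibroblast markers and 69.4 and 14.6 CPM for neutrophil markers. For osteoblast markers they were 38072 and 36342 CPM. The part of the marker genes in the Bak1 differences was not tested. In the annotation, 437 bases of Bak1 exons are shared with Ggnbp1 on the opposite strand, which had only 1.84 to 5.26 CPM in the tumours, and how strand was used in counting is not given in the sources used here.

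The genes whose log2 CPM ran most closely with Bak1 over the 18 tumours were Csnk2b, a regulatory subunit of casein kinase 2, with Pearson's r of 0.94, Mpv17l2, a mitochondrial inner membrane protein, with 0.93, and Agpat1, an acyltransferase of phospholipid synthesis, with 0.92. They were the highest of 16015 genes compared, and are given as a description. With the genotype means removed the values were 0.83 for Csnk2b, 0.86 for Mpv17l2 and 0.73 for Agpat1. Csnk2b at 17:35116196-35122053 and Agpat1 at 17:34604262-34613449 lie on the chromosome of Bak1.

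Bid is the BH3-only protein that caspase-8 cleaves, which carries a death-receptor signal to the mitochondria. The gene lies at 6:120891930-120916853. The 3 R245W tumours had 50.3, 87.6 and 39.4 CPM of Bid. The 5 R270H tumours had 53.4, 11.7, 25.6, 41.3 and 57.1 CPM, the lowest, median and highest R172H values were 12.0, 15.7 and 27.9 CPM, and the p53+/- tumours had 23.2, 16.8, 23.8 and 22.5 CPM. All R245W tumours lay above all R172H and all p53+/- tumours, while R270H tumours spread over the whole range, with 3 at the level of R245W tumours and 1 below every other tumour. The means were 59.1 ± 25.3 CPM in R245W tumours, 37.8 ± 19.1 CPM in R270H tumours, 18.3 ± 6.62 CPM in R172H tumours and 21.6 ± 3.23 CPM in p53+/- tumours.

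The single comparisons of Bid did not pass in edgeR's quasi-likelihood test. R245W against R172H tumours gave a log2 fold of 1.77 ± 0.38 with an adjusted p of 0.0874, R270H against R172H tumours 1.10 ± 0.34 with an adjusted p of 0.0621, and R245W against p53+/- tumours 1.39 ± 0.42 with an adjusted p of 0.213. DESeq2 called the R245W against R172H difference (adjusted p 0.00362) and the R270H against R172H difference (adjusted p 0.0254). It called 348 and 2226 of all 20616 genes in these comparisons. Leaving out R270H replicate 2, the tumour with the least Bid, brought the edgeR adjusted p to 0.0172 for R245W against R172H tumours and to 0.0165 for R270H against R172H tumours. In both comparisons this was the only 1 of 18 fits without 1 library that called Bid. Without R245W replicate 2 the R245W against R172H fold was 1.34 (edgeR adjusted p 0.468). For R270H against R172H tumours the edgeR adjusted p without 1 library reached 0.146. The fibroblast markers were lower in R245W tumours, where Bid was higher. They summed to 388 to 768 CPM there, against 820 to 6599 CPM in R172H tumours and 1811 to 3896 CPM in p53+/- tumours, without overlap. Their part in the Bid values was not tested. Cell line 14 had 59.2 CPM of Bid with p53 siRNA and 70.9 CPM in the control, inside the range of the R245W tumours, and its fibroblast markers summed to 708 CPM with p53 siRNA and 701 CPM in the control.

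Bid shares 628 bases of exon with Bcl2l13, which runs on the opposite strand and is itself a mitochondrial Bcl2 homologue. Bcl2l13 averaged 76.5 ± 10.2 CPM in R245W tumours, 72.3 ± 9.73 CPM in R270H tumours, 59.3 ± 9.67 CPM in R172H tumours and 63.6 ± 14.6 CPM in p53+/- tumours. Its log2 fold in R245W against R172H tumours was 0.43 ± 0.15 (edgeR adjusted p 0.299), smaller than that of Bid and in the same direction. The genes closest to Bid over the tumours were Prr5l, a partner of the mTORC2 kinase complex, with Pearson's r of 0.89, Gm44260 with 0.84 and Thsd4, an extracellular matrix protein, with 0.82. Gm44260 is an experimentally unassigned transcript that lies inside the span of Bid, so the 2 may share reads. Without the genotype means, r was 0.81 for Prr5l and 0.71 for Thsd4.

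**Figure D3:**
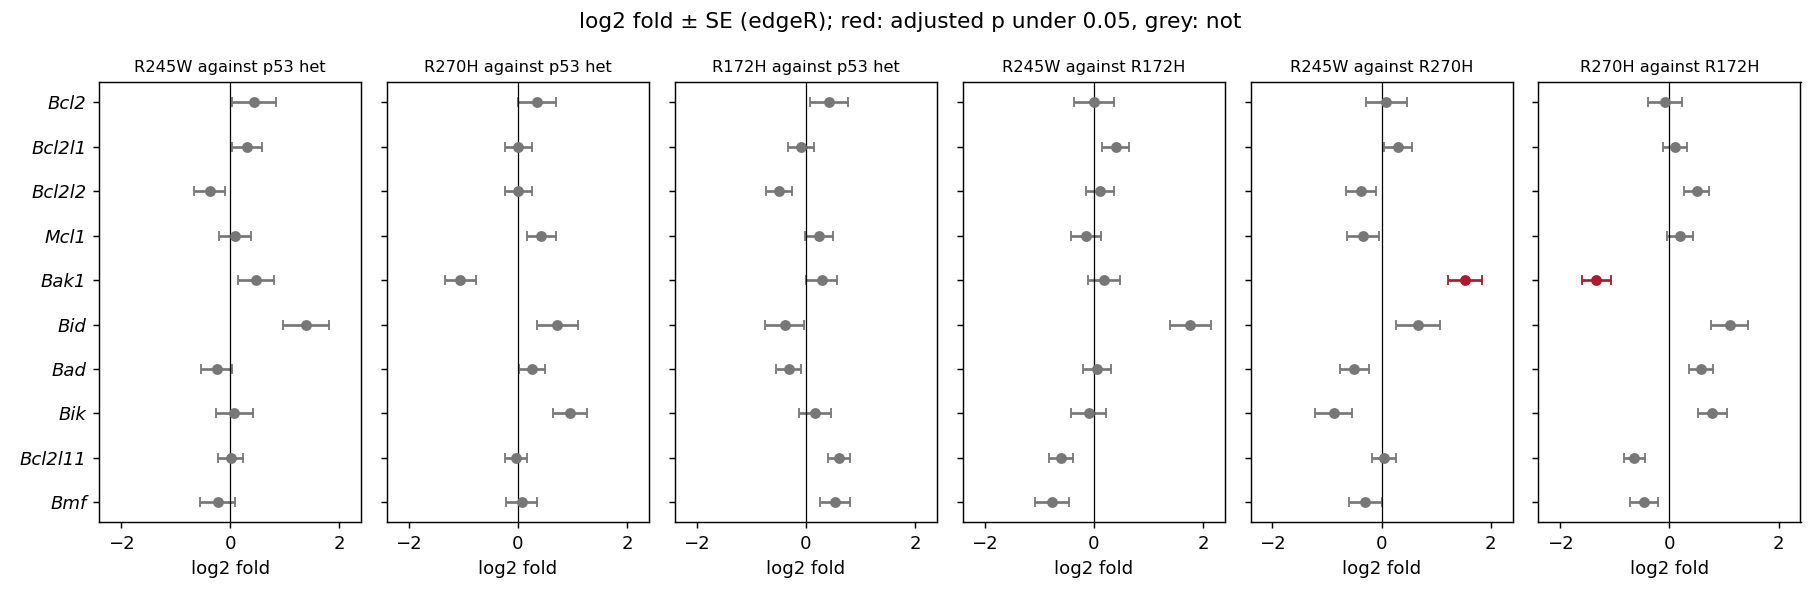
Log2 fold with its standard error for each member in the 6 pairwise comparisons of tumour genotypes (p53 het is p53+/-), from edgeR's model with 20616 genes. Red marks an adjusted p under 0.05 and grey the rest; the red points are Bak1 in R245W against R270H (1.53) and in R270H against R172H (-1.34).

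Bcl2l11 encodes Bim, the BH3-only activator that binds every inhibitor of the family, and lies at 2:128126038-128162547. It stood at 31.3, 25.1 and 45.7 CPM in R245W tumours and at 30.6, 32.9, 32.2, 38.4 and 31.6 CPM in R270H tumours. The lowest, median and highest R172H levels were 43.9, 54.4 and 58.2 CPM, and p53+/- tumours had 20.03, 24.8, 46.3 and 37.1 CPM. All R172H tumours lay above all R270H tumours, and they overlapped with R245W and p53+/- tumours at 1 tumour each. The log2 fold of R270H against R172H tumours was -0.64 ± 0.19, with an edgeR adjusted p of 0.0534, just short of the threshold. For the same difference DESeq2 gave an adjusted p of 0.0149 and limma voom with sample weights an adjusted p of 0.00923. The kind of title as a covariate left a fold of -1.39 with an edgeR adjusted p of 0.454. R172H against p53+/- tumours gave 0.60 ± 0.20 (edgeR adjusted p 0.256) and R245W against R172H tumours -0.60 ± 0.22 (edgeR adjusted p 0.342).

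Bmf, a BH3-only protein tied to the actin and dynein cytoskeleton and released on loss of attachment, was likewise highest on average in R172H tumours, at 34.9 ± 9.68 CPM. Its levels were 20.5, 12.9 and 26.7 CPM in R245W tumours, 18.5, 23.8, 28.3, 22.1 and 29.5 CPM in R270H tumours, between 23.8 and 50.5 CPM with a median of 33.02 CPM in R172H tumours, and 14.4, 27.2, 28.1 and 17.2 CPM in p53+/- tumours. The 3 highest values were R172H tumours, but the groups overlapped. Bmf lies at 2:118528757-118549687. Its largest log2 fold was -0.76 ± 0.31 in R245W against R172H tumours, which did not pass in edgeR (adjusted p 0.381).

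Over the 18 tumours the log2 CPM of Bcl2l11 and Bmf varied together, with Pearson's r of 0.72 (permutation p 7.2e-04, adjusted over 45 pairs of members 0.0324) and Spearman's rho of 0.73 (permutation p 9.2e-04, adjusted 0.0414). Without the 2 tumours farthest from the median of Bcl2l11, r was 0.59. It was 0.77 in the 11 tumours with serial numbers in their titles, 0.42 in the 7 without, and 0.57 with the genotype means removed. Bad and Bik gave the only other pair past the threshold, with r of 0.68 (permutation p 0.00147, adjusted 0.0331). Their Spearman's rho was 0.61 (permutation p 0.00893) and did not pass after adjustment (0.201). The Bad and Bik value was 0.62 without the 2 farthest tumours, 0.65 with serial numbers, 0.34 without them and 0.65 with the genotype means removed. Neither pair passed once genotype means were removed and the 45 pairs adjusted again. For Bak1 and Bik, named for a change of sign, r was -0.42 over all tumours and 0.46 with the genotype means removed. It was 0.72 within titles with a serial number and -0.72 within those without. All R270H tumours are among the latter, so the kind of title and the genotype cannot be told apart here.

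**Figure D4:**
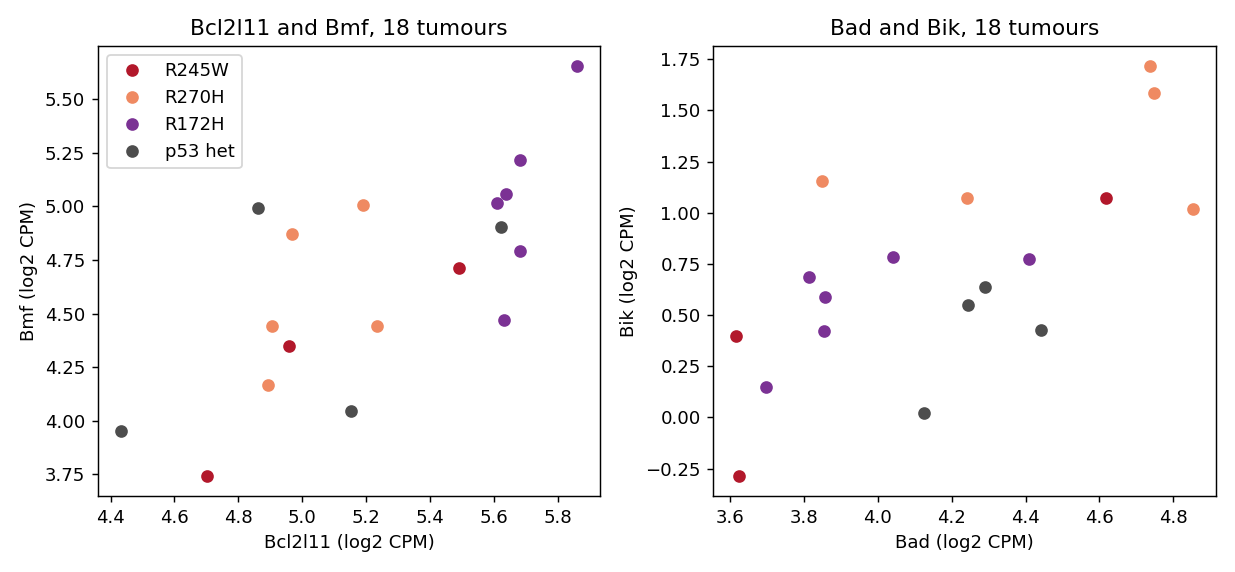
Log2 CPM of Bmf against Bcl2l11 on the left and of Bik against Bad on the right in the 18 tumours, coloured by genotype. The 6 R172H tumours sit at the right of the first panel and the R270H tumours in the upper part of the second.

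Bad, at 19:6941861-6951899, is the BH3-only protein held inactive by growth-factor kinases. It was present at 12.3, 23.7 and 12.5 CPM in R245W tumours, at 27.5, 20.7, 25.5, 14.6 and 27.1 CPM in R270H tumours, between 14.4 and 21.2 CPM in R172H tumours and at 16.2, 16.1, 20.4 and 20.4 CPM in p53+/- tumours. Of the 5 R270H tumours, 3 lay above every other tumour. The log2 fold of R270H against R172H tumours was 0.57 ± 0.22 and did not pass in edgeR (adjusted p 0.127). Bad shares 524 bases of exon with Gpr137 on the opposite strand, which had 7.84 to 15.9 CPM.

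Bik, at 15:83526862-83544634, stood at 1.25, 1.96 and 0.751 CPM in R245W tumours, at 3.31, 2.23, 1.72, 2.20 and 2.96 CPM in R270H tumours, between 1.14 and 1.63 CPM in R172H tumours and at 0.868, 1.18, 1.18 and 1.54 CPM in p53+/- tumours. All R270H tumours lay above all R172H and all p53+/- tumours, and 1 R245W tumour reached into their range. The log2 fold was 0.79 ± 0.27 in R270H against R172H tumours (edgeR adjusted p 0.0902), 0.95 ± 0.30 against p53+/- tumours (0.243) and -0.88 ± 0.33 in R245W against R270H tumours (0.174). None of these passed in edgeR, while DESeq2 (adjusted p 0.0383) and limma voom (adjusted p 0.0237) called the R270H against R172H difference. They called 2226 and 2294 of all 20616 genes there. Limma voom also called R245W against R270H tumours (-1.22, adjusted p 0.0229), beside 1047 of all genes. With the kind of title as a covariate edgeR called none of these differences, and the R245W against R270H fold was -0.63 (adjusted p 0.718).

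Among the inhibitors, no comparison of genotypes passed. Mcl1, at 3:95658788-95663176, had 251, 273 and 226 CPM in R245W tumours, 281, 278, 518, 207 and 275 CPM in R270H tumours, 226 to 347 CPM in R172H tumours and 277, 203, 218 and 183 CPM in p53+/- tumours. The groups overlapped throughout, and the R270H mean of 312 ± 119 CPM rested on the tumour at 518 CPM. Without that tumour the log2 fold of R270H against p53+/- tumours was 0.08, against 0.43 with it.

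Bcl2, the founding inhibitor of the family, lies at 1:106538178-106714274 and had 34.4, 25.95 and 34.0 CPM in R245W tumours, 33.9, 29.01, 21.7, 24.5 and 40.4 CPM in R270H tumours, 16.5 to 85.2 CPM with a median of 24.02 CPM in R172H tumours, and 26.1, 21.8, 18.8 and 20.3 CPM in p53+/- tumours. A single R172H tumour, replicate 2, stood far above the rest, and the other 5 R172H tumours reached only 26.1 CPM. The log2 fold of R172H against p53+/- tumours was 0.43 with that tumour and -0.07 without it. An antisense transcript, D630008O14Rik, shares 558 bases of exon with Bcl2 and had 0.262 to 1.59 CPM.

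Bcl2l1, the inhibitor Bcl-xL at 2:152780668-152831728, averaged 32.3 ± 4.88 CPM in R245W tumours, 26.4 ± 6.25 CPM in R270H tumours, 25.3 ± 3.59 CPM in R172H tumours and 24.6 ± 8.17 CPM in p53+/- tumours, with overlap of all groups. Bcl2l2, the inhibitor Bcl-w at 14:54883377-54888234, averaged 31.7 ± 3.30 CPM in R245W tumours, 41.4 ± 6.68 CPM in R270H tumours, 29.9 ± 8.55 CPM in R172H tumours and 39.0 ± 10.04 CPM in p53+/- tumours. Its largest difference, a log2 fold of 0.50 ± 0.22 in R270H against R172H tumours, did not pass in edgeR (adjusted p 0.193).

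Set against p53+/- tumours, no member passed edgeR's test in tumours of any missense allele. In R245W tumours 0 of 10 members were called, beside 0.0728% of all genes, and 1 had an unadjusted p below 0.05, against 12.5% of all genes. In R270H tumours 0 were called, beside 0% of all genes, and 2 had an unadjusted p below 0.05, against 11.5% of all genes. DESeq2 called 1 member there, Bak1 (adjusted p 0.0429), beside 320 of all 20616 genes. In R172H tumours 0 were called, beside 0.0776% of all genes, and 1 had an unadjusted p below 0.05, against 12.3% of all genes. DESeq2 and limma voom called 0 members in R245W and in R172H tumours. Of all genes, DESeq2 called 353 in R245W and 295 in R172H tumours, and limma voom 14 and 0.

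The median log2 fold of the members was 0.08 in R245W tumours, 0.16 in R270H tumours and 0.20 in R172H tumours against p53+/- tumours, where the medians over all genes were -0.04, -0.01 and -0.02. These 3 comparisons share the 4 p53+/- tumours. With the 3 missense genotypes averaged, 0 of 10 members were called, beside 0.0582% of all genes. None of the 10 had an unadjusted p below 0.05 in edgeR, against 9.74% of all genes. DESeq2 and limma voom also called 0 members, beside 121 and 0 of all 20616 genes. The largest member folds there were 0.57 ± 0.33 for Bid (edgeR adjusted p 0.596) and 0.40 ± 0.31 for Bcl2 (edgeR adjusted p 0.700).

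In comparisons between missense genotypes, Bak1 gave the calls already described. In R245W against R172H tumours 0 of 10 were called, beside 0.155% of all genes. Of the 10, 3 had an unadjusted p below 0.05, against 10.8% of all genes. DESeq2 called 1 member, Bid, beside 348 of all 20616 genes, and limma voom 0 members, beside 119. In R270H against R172H tumours 6 of 10 members had an unadjusted edgeR p below 0.05, namely Bcl2l2, Bak1, Bid, Bad, Bik and Bcl2l11, against 23.2% of all genes. Of these 6, Bak1 and Bcl2l11 had the lower level in R270H tumours and the other 4 the higher level. The median log2 fold of the members in that comparison was 0.14, against -0.02 over all genes. In R245W against R270H tumours 2 members, Bak1 and Bik, had an unadjusted p below 0.05, against 18.4% of all genes, with opposite directions.

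A list of 38 other apoptosis genes ran from Bax to the caspases and their inhibitors, and 37 of them passed the filter on low counts. Bok, an effector relative of Bak1, was lower in R172H tumours (17.0 ± 4.66 CPM) than in R270H tumours (45.7 ± 18.7 CPM). The log2 fold of R270H against R172H was 1.44 ± 0.40 (edgeR adjusted p 0.0441). Bok averaged 39.6 ± 21.5 CPM in R245W and 36.7 ± 24.5 CPM in p53+/- tumours. R270H against p53+/- tumours gave 0.26 ± 0.44 (edgeR adjusted p 0.879). Bok was the only one of 37 called in R270H against R172H tumours, beside 5.28% of all genes. Its call was lost in 10 of 18 fits without 1 library, with an edgeR adjusted p up to 0.109. It was also lost with the kind of title as a covariate (0.18, edgeR adjusted p 0.964), where 1 of all 20616 genes was called. Tnfrsf10b, the mouse death receptor for TRAIL, differed among the 4 genotypes (edgeR adjusted p 0.0434), with 18.1 ± 2.404 CPM in R245W tumours, 6.05 ± 1.93 CPM in R270H tumours, 5.48 ± 2.46 CPM in R172H tumours and 7.35 ± 2.596 CPM in p53+/- tumours. It was the only one of 37 called in that test, beside 2.86% of all genes. Tnfrsf10b lost its call in 12 of 18 fits without 1 library, with an edgeR adjusted p up to 0.107. It also lost it with the kind of title as a covariate (edgeR adjusted p 0.231), where 19 of all 20616 genes were called. The edgeR test called 0 of 37 in each of the other 6 comparisons, in which it called between 0% and 1.24% of all genes, so these counts say nothing particular about the list. In those 6 comparisons 2 to 10 of the 37 had an unadjusted edgeR p below 0.05, against 9.74% to 18.4% of all genes. Against p53+/- tumours the lowest p in this list belonged to Tnfrsf10b in R245W tumours (1.22, edgeR adjusted p 0.265), to Endog, a mitochondrial nuclease, in R270H tumours (-0.999 ± 0.26, adjusted p 0.195) and to Bok in R172H tumours (-1.18 ± 0.42, adjusted p 0.288).

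**Figure D5:**
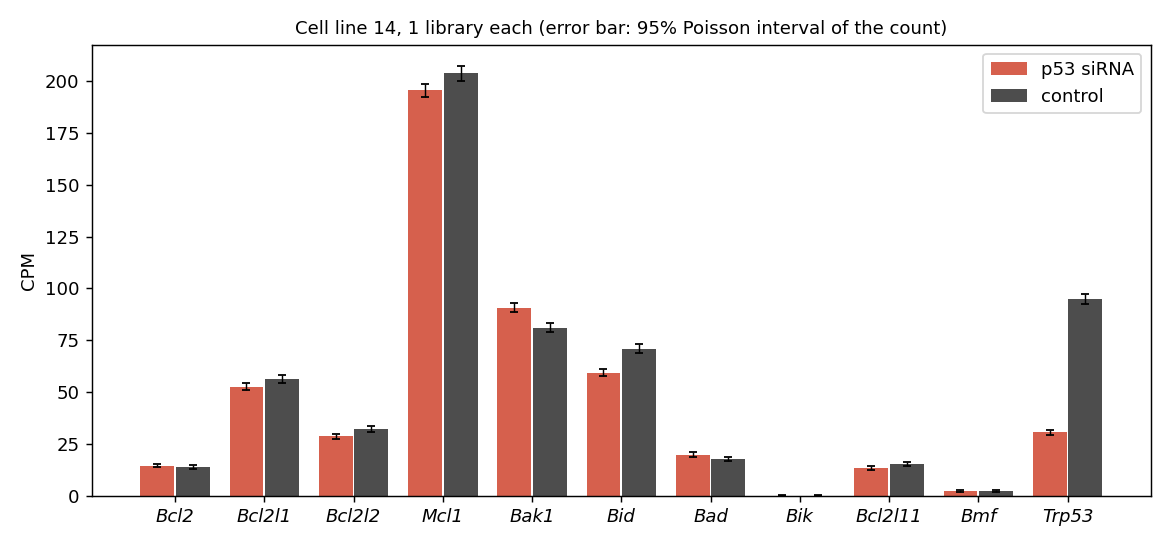
CPM of the 10 members and of Trp53 in cell line 14 with p53 siRNA and in its control, 1 library each, with error bars for the 95% Poisson interval of the count. The Trp53 bar is 30.6 CPM with p53 siRNA and 94.9 CPM in the control, while the bars of each member lie close together.

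Few genes, and no family member, differed by 1.5-fold or more between p53 siRNA and control in cell line 14. Trp53 with p53 siRNA was 0.322 times its control level (95% interval 0.307 to 0.338). On the CPM plus 1 scale 0 of 10 members differed by 1.5-fold or more, beside 0.543% of 29456 genes. At that share, a count of 0 among 10 says nothing particular about the family. The 29456 genes include some near 0 CPM, which that scale damps. With 1 library per condition there is no replicate, so no test of the treatment can be made, and the intervals cover counting error only.

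Ratios of p53 siRNA to control CPM were above 1 for Bak1, at 90.7 CPM with p53 siRNA and 80.9 CPM in the control, with a ratio of 1.12 (1.08 to 1.16), and for Bad, at 1.12 (1.04 to 1.22). They were below 1 for Bid, at 0.836 (0.801 to 0.871), for Bcl2l11, at 0.855 (0.782 to 0.935), for Bcl2l2, at 0.893 (0.840 to 0.949), for Bcl2l1, at 0.932 (0.891 to 0.976) and for Mcl1, at 0.960 (0.937 to 0.983). The interval held 1 for Bcl2, at 1.06 (0.968 to 1.16), and for Bmf, at 1.03 (0.812 to 1.30). Bik was counted 3 times with p53 siRNA and 2 times in the control, so its ratio of 1.31 (0.150 to 15.7) says nothing on direction. Of the 38 other apoptosis genes only Pmaip1 (Noxa) passed 1.5-fold on the CPM plus 1 scale, beside 0.543% of all genes. It had 3.38 CPM with p53 siRNA and 7.26 CPM in the control, a ratio of 0.466 (0.398 to 0.545). That scale damps genes near 0 CPM, such as Bcl2a1a with 15 counts with p53 siRNA and 4 in the control, a plain ratio of 3.28 (1.04 to 13.6).

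The cell line and the tumours had unlike proportions of the members. Bik and Bmf, present in every tumour, stood at 0.0409 and 2.21 CPM with p53 siRNA and at 0.0312 and 2.15 CPM in the control, and Bcl2l11 at 13.2 CPM with p53 siRNA and 15.5 CPM in the control lay below all tumours. Bcl2l1, at 52.6 CPM with p53 siRNA and 56.4 CPM in the control, lay above all tumours, whose highest value was 36.7 CPM. Mcl1 was again the most abundant per kb of exon, with 40.6% of the summed level with p53 siRNA and 41.6% in the control, and Bak1 followed with 26.8% with p53 siRNA and 23.4% in the control. The line is a single culture-derived line, and these differences from the tumours have no replicate.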

How the data were processed

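Total RNA of 18 tumours and 2 cell line libraries was sequenced with Illumina protocols, per the labels' protocols. The authors aligned reads to GRCm38 with STAR 2.6.0b, per the submitters' processing notes, and deposited raw counts per gene; the counting program, annotation and strand setting are not given in the sources used here. Of 49585 IDs, 49326 matched a symbol, and 43749 had the same version in GENCODE M21, whose exon lengths gave CPM per kb.

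Members and gene lists were chosen with earlier results of these data known. Named genes are all 10 members, Trp53, the 3 genes most alike to each member called in the test for any difference, and, of the pathway list, those called or of lowest p. Groups follow the labels, and replicates are numbered in accession order. CPM are counts per megacount of a library's total. In R 4.3.3, edgeR 4.0.16 fitted 1 quasi-likelihood model, with genotype as the factor, to 20616 genes that passed filterByExpr (minimum count 10, minimum total 15), with TMM scaling and 14 residual degrees of freedom. p-values were adjusted over all genes within a comparison (Benjamini-Hochberg, threshold 0.05). Log2 CPM used a prior count of 2, and correlations were tested two-sided with 100000 permutations. Cell line ratios have exact 95% intervals. The edgeR fit was run on simulated counts with known folds, for R245W against R270H and R270H against R172H. Those counts held no difference by kind of title, so they say nothing on title kind. Alternatives were DESeq2 1.42.0, limma voom 3.58.1, other size factors, no filter, fits of 2 genotypes, title kind, and each library left out. Intervals and floors cover counting error only.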

Additional observations from a re-analysis of the deposited data

Results flagged for a closer look

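A tumour far from the others of its genotype was looked for in each member and in each genotype with at least 4 tumours, 30 groups in all, where chance marks about 1 in 20. It was found 4 times. Bcl2 reached 85.2 CPM in R172H replicate 2, where the other 5 R172H tumours lay between 16.5 and 26.1 CPM. That library also had the lowest summed osteoblast markers (12745 CPM), fibroblast markers (820 CPM) and T and NK cell markers (4.72 CPM) of the R172H tumours. Its B and plasma cell markers (6.80 CPM) lay near the R172H median of 7.09 CPM. The part of these markers in the Bcl2 level was not tested. Mcl1 reached 518 CPM in R270H replicate 3, against at most 281 CPM in the other R270H tumours. Bad stood at 21.2 CPM in R172H replicate 1, above 14.4 to 15.6 CPM in the other R172H tumours, and without that tumour the log2 fold of R270H against R172H tumours was 0.67 (edgeR adjusted p 0.106). Bcl2l11 stood at 43.9 CPM in R172H replicate 6, below 53.3 to 58.2 CPM in the others, and without it the fold of R270H against R172H tumours was -0.66 (edgeR adjusted p 0.0731).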

How the results depend on the processing

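No paired analysis was possible because the replicates are numbered by accession, and such numbers pair no samples. The number of members called stayed at 0 under every alternative run for R245W and R172H against p53+/- tumours, for all missense tumours and for the cell line. DESeq2 gave 1 for R270H against p53+/- tumours, 1 for R245W against R172H, 4 for R270H against R172H and 4 for any difference. Of all 20616 genes it called 320, 348, 2226 and 2475 in these tests. Limma voom gave 2 for R245W against R270H, 3 for R270H against R172H and 1 for any difference, beside 1047, 2294 and 330 of all 20616 genes. DESeq2 size factors in edgeR gave 2 for R270H against R172H, beside 1066 of all 20616 genes. A fit of those 2 genotypes alone also gave 2, beside 1636 of 18434 genes. The kind of title as a covariate gave 0 for R245W against R270H, 0 for R270H against R172H and 0 for any difference. These rest on 4 p53+/- libraries. Over all 20616 genes that fit called 8, 1 and 19, against 255, 1088 and 590 without the covariate. The lost calls are therefore not particular to the members. Leaving out 1 library gave 0 to 1 for R245W against R172H, 0 to 1 for R245W against R270H, 1 to 2 for R270H against R172H and 0 to 2 for any difference. Over all genes these fits called 14 to 39, 48 to 411, 469 to 1323 and 185 to 937. The 2 pairs of correlated members were 0 to 2 without 1 tumour and 0 with genotype means removed. Of the 15 member folds with an unadjusted p below 0.05, 0 turned their sign under the alternatives run. Of the 55 other member folds, none of which passed, 24 changed sign under some alternative, all with a reported fold of at most 0.43. In all genes, DESeq2 called 2226 and edgeR 1088 for R270H against R172H, so its larger member counts are read against more calls. The causes were not tested. Bik, with 18 to 70 counts a tumour, is limited by depth.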

Other observations

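Birc2, the inhibitor of apoptosis protein cIAP1, was singled out after its values were seen. It had 566 CPM in R270H replicate 5, against 24.002 to 69.3 CPM in the other 17 tumours, a level 12.4-fold above their median. Within 2 Mb on either side of Birc2 on chromosome 9, of 19 protein-coding genes with a mean of at least 1 CPM, 15 were higher in that tumour than in any of the other 17. Birc3, encoding cIAP2, had 313 CPM against at most 73.5 CPM, Yap1, the Hippo pathway coactivator, had 1820 CPM against at most 136 CPM, and Dync2h1, a motor of the primary cilium, had 1261 CPM against at most 95.9 CPM. Arhgap42, at 9:8994329-9239101, lay within the range of the others with 61.5 CPM. The members of the Bcl2 family in the same tumour did not stand apart in this way, with Bcl2 at 40.4 CPM, Bid at 57.1 CPM and Mcl1 at 275 CPM.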
